A study of Mus musculus with 8 samples.

Results

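T and NK lymphocytes were a small population of the liver cells profiled here. A cell was taken as a T cell where at least 2 of the T cell receptor complex genes Cd3e, Cd3d, Cd3g, Trac and Trbc2 were detected, and as an NK cell where at least 2 of Ncr1, Klrb1c, Gzma, Eomes and Klre1 were detected, in each case with fewer than 2 of the B cell genes Cd79a, Cd79b and Ms4a1. A gene counted as detected with 1 unique molecular identifier (UMI), the tag that marks 1 captured transcript. The rule found 81 cells among 3192, or 2.54%. Of these, 68 were T cells, 9 were NK cells and 4 met both gene sets and are called double-positive. Levels of the rule genes describe how the cells were chosen.

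The study took livers of male C57BL/6 mice, aged 6 to 8 weeks when purchased, that received a high fat, high cholesterol (HFHC) diet in 4 animals and a chow control diet in 4 animals for 20 to 32 weeks. Sample titles call the diet high calorie instead. Non-parenchymal cells were freed of dead cells, stained for CD45, CD31, CD146 and PDPN, sorted, and profiled with the 10x Genomics droplet method, which gave 1 library of single-cell transcripts per animal. The design text speaks of enriching endothelial cells, so the lymphocytes are what the sort let through; which gates were set is not known here. The series title concerns liver lymphatic vessels, and the labels pose no question about lymphocytes.

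CD8 T cells recognise peptides on infected or altered cells and kill them with granzymes and perforin, while CD4 T cells mainly direct other immune cells. Naive T cells circulate through lymph nodes and express the transcription factors Lef1 and Tcf7, and effector cells express chemokines such as Ccl5 and granzymes. The liver is known to hold resident CD8 T cells that carry the chemokine receptor CXCR6, and it is rich in NK cells, which kill without antigen receptors.

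Libraries differed in size and origin before any lymphocyte was counted. They held 47 to 875 kept cells and 170448 to 2309209 UMIs. HFHC 1, HFHC 2, HFHC 3, control 1 and control 2 shared 33 to 65 cell barcodes in each pair, and each barcode was kept once, where it had most UMIs. None of the 81 lymphocytes had a barcode found in another library, and none of the 224 removed copies met the rule. HFHC 3 and control 2 belonged to that set of libraries, and hepatocyte transcripts filled most of their barcodes: 676 and 703 barcodes had at least 4 of 8 hepatocyte markers. HFHC 4 and control 3 held mostly barcodes with at least 4 of 8 liver sinusoidal endothelial markers, 484 and 500. In control 4, labelled male, both T cells contained Xist, the transcript of the inactive X chromosome, with 3 and 7 UMIs, so this library goes against its label.

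Of cells with T rule genes, 42 had all 5, 21 had 4, 6 had 3 and 3 had the required 2, with a median of 3 UMIs of these genes at the threshold. Just outside it, 43 cells had 1 T gene, with a median of 1 UMI, and 28 of them were hepatocyte-marked barcodes. Of cells with NK genes, 6 had the required 2, none had 3, 4 had 4 and 3 had 5, and 32 had 1. No lymphocyte had any UMI of Cd79a, Cd79b or Ms4a1. The pan-leukocyte gene Ptprc, which encodes CD45, was detected in 53 of the 81 cells, and Cd52 in 79.

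The lymphocytes came mostly from 1 animal. HFHC libraries 1 to 4 held 0, 1, 68 and 0 of them, and control libraries 1 to 4 held 1, 9, 0 and 2. HFHC 3 alone thus gave 84.0% of the set. Their share of kept cells was 7.93% in HFHC 3 (Wilson 95% interval 6.31 to 9.94%) and 1.35% in HFHC 2, against 1.03% in control 2 (0.542 to 1.94%), 1.82% in control 1 and 2.13% in control 4. The counts of 0 allow shares of up to 6.38% in HFHC 1, 0.487% in HFHC 4 and 0.523% in control 3; all intervals and limits here cover counting error only. The other 3 HFHC libraries lie within the range of the control libraries, and HFHC 3 lies above it. The shares of HFHC 2, control 1 and control 4 rest on 1 or 2 cells each. Their Wilson 95% intervals reach up to 7.27%, 9.61% and 7.43%, and so overlap that of HFHC 3.

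**Figure D1:**
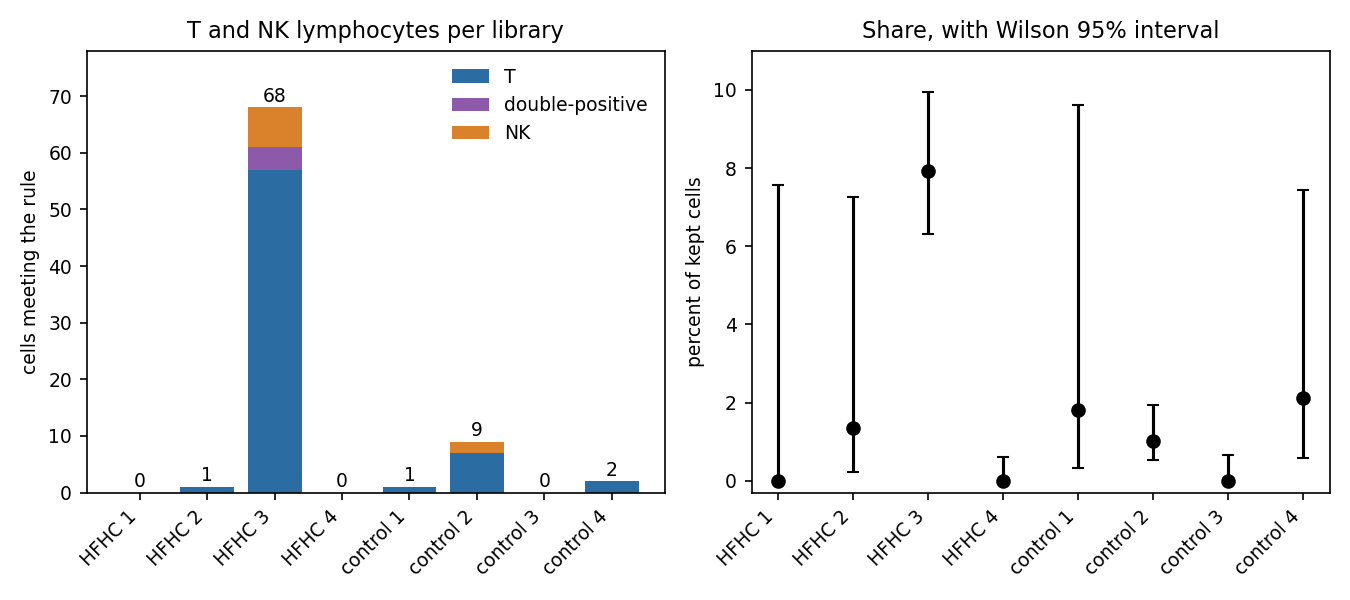
Left, the number of T, double-positive and NK cells in each library, with totals above the bars. Right, their share in percent of kept cells with Wilson 95% intervals. HFHC 3, at 7.93%, stands above the other libraries, which lie between 0 and 2.13%. The intervals of HFHC 1, HFHC 2, control 1 and control 4 overlap that of HFHC 3.

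By diet, the share averaged 2.32% ± 3.80 in HFHC libraries and 1.24% ± 0.949 in control libraries (SD, n = 4 each). The difference of 1.08 percentage points was smaller than the spread between HFHC animals, with p = 0.886 when the 8 libraries were assigned to the diets in all 70 ways (exact permutation test, two-sided). The smallest p this design allows is 0.0286. T cells averaged 2.00% ± 3.17 in HFHC libraries and 1.19% ± 0.973 in control libraries, with p = 0.886 in the exact permutation test. NK cells averaged 0.204% ± 0.408 in HFHC libraries and 0.0571% ± 0.114 in control libraries, with p = 1 in the exact permutation test; adjusted over the 3 shares, each exact permutation p was 1. Without HFHC 3 the difference for all lymphocytes was -0.793 percentage points, the other way, and without control 4 it was 1.37 percentage points.

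The balance of T and NK cells to B cells was not alike in the 2 libraries with most lymphocytes. HFHC 3 held 68 T and NK cells beside 15 B cells, so these made up 81.9% of its lymphocytes (Wilson 95% interval 72.3 to 88.7%). Control 2 held 9 beside 41 B cells, which is 18.0% (9.77 to 30.8%). In the other libraries with any lymphocyte, T and NK cells were 0 of 2 in HFHC 1 and 1 of 3 in HFHC 2, against 1 of 4 in control 1 and 2 of 2 in control 4. No test between diets was made on these numbers.

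The T cells of HFHC 3 were mostly CD8 cells. Among its 57 T cells, Cd8b1, which encodes the beta chain of the CD8 coreceptor, was detected in 45 (78.9%) and Cd8a, the alpha chain, in 34 (59.6%). At least 1 of these genes, which lie side by side at chr6:71322788-71337494 and chr6:71373427-71379173 (GRCm38, plus strand), was found in 47 cells. Cd4 was detected in 3 cells with 1 UMI each, in none together with Cd8, and 7 cells had neither. In control 2, Cd8b1 was detected in 5 of 7 T cells and Cd8a in 1. Runx3, a transcription factor of the CD8 lineage, was detected in 33 of the 57 T cells of HFHC 3 and in 3 of its 7 NK cells. In hepatocyte-marked barcodes of the same library, Cd8b1 was found in 0.888% (median depth 2096 UMIs, against 2413 UMIs in the T cells). Whether it came there from free RNA or from other cells in the same droplet was not tested.

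Defining genes of some other T lineages had no UMI in these 57 cells, while other genes of the same lists were found. Foxp3 and Il2ra, which define regulatory T cells, had 0 UMIs, as did Zbtb16 of NKT cells and Il17a of IL-17 producing cells; a count of 0 allows up to 5.26% of T cells with a UMI. Of the 5 genes of the regulatory list, 3 were detected, with 32 UMIs in 21 cells, among them Ctla4 in 9 cells and Tnfrsf18 in 14, both of which activated T cells also express. Of the 9 genes of the NKT and innate lymphoid list, 3 were detected, with 19 UMIs in 14 cells, among them Gata3 in 6 cells and Inpp4b in 5. The gamma delta list had 74 UMIs in 15 cells, with 5 of its 6 genes detected. Trdc, the constant region of the delta receptor chain at chr14:54142851-54148868, had 18 UMIs in 1 cell and 4 in another, and Trac had 0 UMIs in both. The cell with 18 also had 9 UMIs of Tcrg-C2, 4 of Cd163l1, a gamma delta marker, and 0 of Ccl5. Some Tcrg constant gene was detected in 15 T cells; Tcrg-C2 alone was in 12, and because the Tcrg-C genes are near copies of each other their counts may be shared.

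Naive and effector genes were detected unevenly in the T cells of the libraries. Counting T and double-positive cells, 54 of 61 cells in HFHC 3 had an effector gene (Ccl5, Gzmk or Gzmb) and no naive gene (Lef1 or Tcf7), 1 had a naive gene alone, 4 had both and 2 had neither. Of the 7 T cells of control 2, 1 had effector genes alone, 3 had naive genes alone and 3 had both. The cell of HFHC 2 and the cell of control 1 had effector genes alone, and of the 2 cells of control 4, 1 had naive genes alone and 1 had both. A naive gene was thus detected in 8.20% of the HFHC 3 cells (Wilson 95% interval 3.55 to 17.8%) and in 85.7% of the control 2 cells (48.7 to 97.4%). HFHC 3 was the only library with the 5 classified cells that a test between diets was set to need, so none was made.

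Ccl5, a chemokine that draws T cells and monocytes and is stored in cytotoxic lymphocytes, was the most abundant of these transcripts. The 57 T cells of HFHC 3 held from 0 through a median of 62 to 447 Ccl5 UMIs, 5368 in all, with 52 cells positive. The 7 T cells of control 2, in order of depth, had 0, 10, 0, 0, 1, 1 and 46 UMIs. Single T cells had 63 UMIs in HFHC 2 and 10 in control 1, and the 2 cells of control 4 had 23 and 0. Of the HFHC 3 T cells, 37 lay above the highest of the 10 control T cells, 46 UMIs, so the groups overlap. Ccl5 was also found in 15.4% of hepatocyte-marked barcodes of HFHC 3, with at most 3 UMIs in any of them. It was found in 0 of the 15 B cells of HFHC 3, which allows up to 20.0%.

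**Figure D2:**
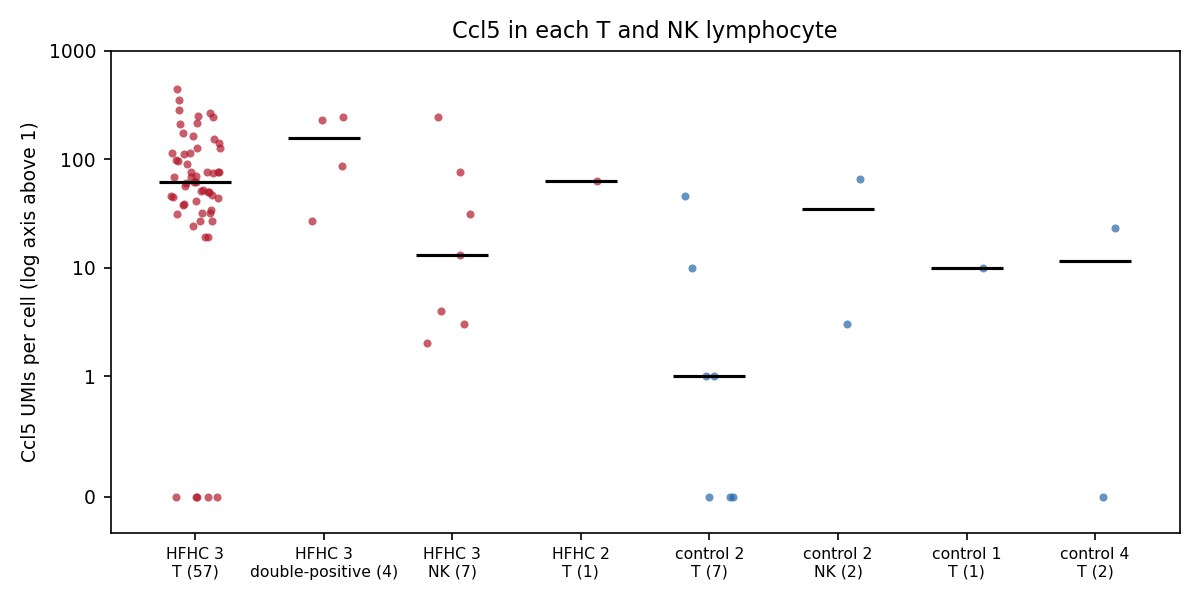
Ccl5 UMIs in each T, double-positive and NK cell, by library and class, on an axis that is logarithmic above 1; red points are HFHC cells, blue points control cells and bars are medians, with the number of cells in brackets. The HFHC 3 T cells have a median of 62 UMIs and the control 2 T cells a median of 1.

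The T cells of HFHC 3 and control 2 were set side by side as summed counts, 144426 UMIs from 57 cells in HFHC 3 and 24744 UMIs from 7 cells in control 2. With 1 library of each diet this compares 2 animals and has no replicate check, so no p-value is given, and intervals cover counting error only. Among 2165 genes with at least 10 UMIs over both sums, 19.9% were at least 2-fold higher and 6.79% at least 2-fold lower in HFHC 3, with counts of 0 set to 3. The HFHC 3 sum was larger, so genes found there alone met the 10 UMIs at a lower level than genes found in control 2 alone. This favoured genes higher in HFHC 3, in the lists below as among all genes compared. The split between higher and lower genes also depends on the scale. Ribosomal transcripts took 29.0% of UMIs in HFHC 3 and 42.9% in control 2, mitochondrial ones 2.18% in HFHC 3 and 6.68% in control 2. With both left out of the totals, 9.84% of genes were at least 2-fold higher and 21% at least 2-fold lower, and the median ratio over all genes was 0.795 in place of 1.09. All genes named below as higher had the same direction on both scales, although Ifng, Tox, Pdcd1, Ctsd, Apoc3 and Fabp1 were then less than 2-fold higher.

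Chemokine and granule genes led the genes that were higher in HFHC 3, ranked by the bound of the interval nearest to 1. Ccl4 had 383 UMIs in 37 of 57 cells in HFHC 3 and 0 in control 2, a ratio of 21.9 with 0 set to 3 (lower end 17.7). Its neighbour Ccl3 had 280 UMIs in 22 cells in HFHC 3 and 0 in control 2, a ratio of 16.0 (lower end 12.9). Both encode chemokines released by activated CD8 T cells. In HFHC 3, 1 cell held 177 of the Ccl4 UMIs, and 149 of the Ccl3 UMIs were likewise in 1 cell. Without the highest cell of each, the ratios with 0 set to 3 were 12.0 for Ccl4 and 7.64 for Ccl3. Ccl5 was 15.9-fold higher (95% interval 12.2 to 20.9), with 37168 CPM (counts scaled to 1000000 UMIs) in HFHC 3 and 2344 CPM in control 2. The 3 genes lie in 1 chemokine cluster, at chr11:83525778-83530518 for Ccl5, chr11:83647844-83649355 for Ccl3 and chr11:83662584-83664683 for Ccl4 (GRCm38). Ccl4 was also found in 64 of 676 hepatocyte-marked barcodes of HFHC 3, with up to 76 UMIs in 1 barcode, and 50 of these 676 barcodes had at least 2 leukocyte genes, so free RNA and other cells in the same droplet were not told apart there. The 15 B cells of HFHC 3 had 2 UMIs of Ccl4 in all.

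Granule genes followed. Gzmk, a granzyme of effector memory CD8 cells, had 88 UMIs in 32 cells of HFHC 3 and 0 in control 2, a ratio of 5.03 (lower end 4.00). Gzmb, the granzyme that triggers apoptosis in target cells, had 76 UMIs in 23 cells of HFHC 3 and 0 in control 2. Its ratio was 4.34 (lower end 3.44). Nkg7, a granule membrane protein, had 823 UMIs in 53 cells of HFHC 3 and 34 UMIs in 5 cells of control 2, a ratio of 4.15 (2.94 to 6.03). Cst7, an inhibitor of granule proteases, had 62 UMIs in HFHC 3 and 0 in control 2, a ratio of 3.54 (lower end 2.79). Perforin, encoded by Prf1, had 19 UMIs in HFHC 3 and 1 in control 2, with a ratio whose interval of 0.517 to 135 spans 1. Of the 10 genes of the granule list, which holds Nkg7, Cst7 and Prf1, 8 had enough UMIs, 4 (Nkg7, Cst7, Prf1 and the protease Ctsd) were at least 2-fold higher, beside 19.9% of all genes compared, and 0 at least 2-fold lower, beside 6.79%. Their median ratio was 1.76, beside 1.09 over all genes. With ribosomal and mitochondrial UMIs left out, 3 were higher, beside 9.84%, and 1 lower, beside 21%. Cst7, with 0 UMIs in control 2, met the minimum of UMIs through HFHC 3 alone.

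The cytokine Ifng, which activates macrophages, had 46 UMIs in 21 cells of HFHC 3 and 0 in control 2, a ratio of 2.63 (lower end 2.05). Fasl, a death ligand, had 14 UMIs in HFHC 3 and 0 in control 2, too few for a 2-fold bound. Tnf had 1 UMI in HFHC 3 and 0 in control 2, and Il10 had 7 UMIs in HFHC 3 and 0 in control 2. Xcl1, a chemokine for cross-presenting dendritic cells, was lower, with 6 UMIs in HFHC 3 and 11 UMIs in control 2, a ratio of 0.0935 (0.0284 to 0.276), or 0.156 without the control 2 cell that held 6 of the 11. Of the 10 effector cytokines and chemokines listed, Ccl3 and Ccl4 included, 5 had enough UMIs, 3 were at least 2-fold higher, beside 19.9% of all genes compared, and 1 at least 2-fold lower, beside 6.79%, with a median ratio of 2.63, beside 1.09 over all genes. With ribosomal and mitochondrial UMIs left out, 2 were higher, beside 9.84%, and 1 lower, beside 21%. Ccl3, Ccl4, Ifng and Fasl, with 0 UMIs in control 2, met the minimum of UMIs through HFHC 3 alone.

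Genes of chronically stimulated and resident T cells were also found in HFHC 3. Lag3, an inhibitory receptor, had 58 UMIs in 23 cells of HFHC 3 and 0 in control 2, a ratio of 3.31 (lower end 2.61). Tox, a transcription factor of exhausted T cells, had 45 UMIs in 24 cells of HFHC 3 and 0 in control 2. Its ratio was 2.57 (lower end 2.01). Pdcd1, which encodes PD-1, had 37 UMIs in 19 cells of HFHC 3 and 0 in control 2, a ratio of 2.11 (lower end 1.63). Rgs1, a regulator of chemokine signalling that is high in tissue T cells, had 103 UMIs in HFHC 3 and 2 in control 2, a ratio of 8.82 (2.38 to 73.8). Cxcr6 was detected in 33 of 57 cells in HFHC 3 and in 3 of 7 in control 2, with a ratio of 1.71 whose interval of 0.743 to 4.85 spans 1. Cd69, a residency gene, was in 11 of 57 cells in HFHC 3 and in 2 of 7 in control 2. Its ratio was 0.800 (0.223 to 4.34), below 1. Cd160 had 27 UMIs in HFHC 3 and 1 in control 2, a ratio of 4.63 whose interval of 0.762 to 189 spans 1. Havcr2, another exhaustion receptor, was in 2 cells of HFHC 3, and Tigit had 0 UMIs in both libraries. Of 12 genes in this list, 7 had enough UMIs, 5 were at least 2-fold higher, beside 19.9% of all genes compared, and 0 lower, beside 6.79%, with a median ratio of 2.57, beside 1.09. With ribosomal and mitochondrial UMIs left out, 3 were higher, beside 9.84%, and 0 lower, beside 21%. Lag3, Tox and Pdcd1, with 0 UMIs in control 2, met the minimum of UMIs through HFHC 3 alone.

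**Figure D3:**
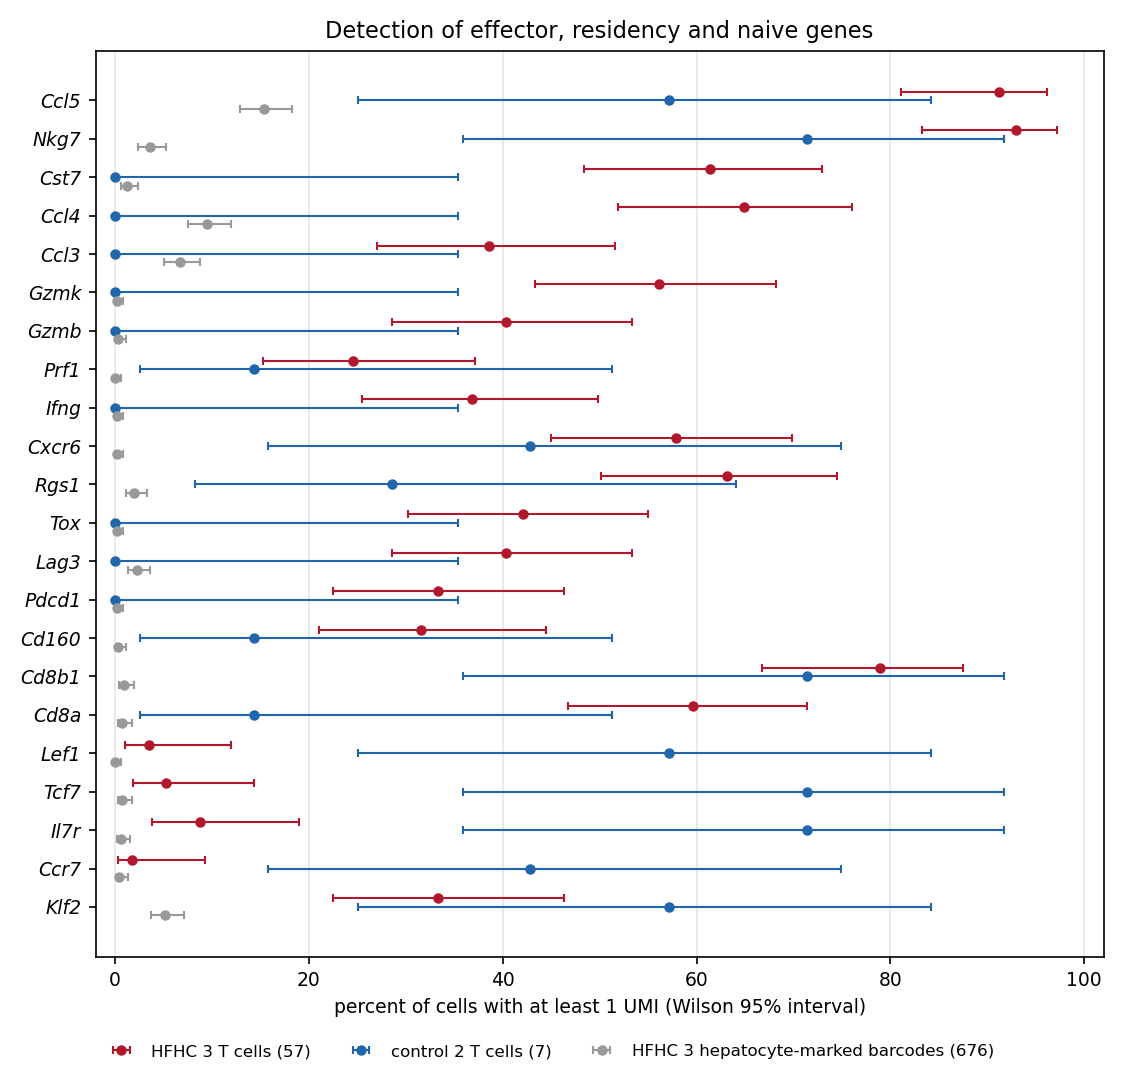
Percent of cells with at least 1 UMI of each gene, with Wilson 95% intervals, in HFHC 3 T cells (red), control 2 T cells (blue) and hepatocyte-marked barcodes of HFHC 3 (grey). Ccl4, Ccl3, Gzmk, Gzmb, Ifng, Tox, Lag3 and Pdcd1 are at 0 of 7 cells in control 2, while Lef1, Tcf7 and Il7r are found in 4, 5 and 5 of those 7 cells.

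The naive genes Lef1 and Tcf7 ran the other way. Lef1 had 2 UMIs in HFHC 3 and 11 in control 2, a ratio of 0.0312 (0.00336 to 0.143), and Tcf7 had 4 UMIs in HFHC 3 and 7 in control 2, a ratio of 0.0979 (0.0210 to 0.385). Il7r, the survival receptor of naive and memory T cells, had 6 UMIs in HFHC 3 and 8 in control 2, a ratio of 0.128 (0.0367 to 0.422). Ccr7, which guides cells into lymph nodes, was detected in 1 of 57 cells of HFHC 3 and in 3 of 7 cells of control 2, with too few UMIs for a ratio. Of the 8 genes of the naive and recirculation list, which does not hold Lef1 and Tcf7, 2 had enough UMIs, Klf2 and Il7r, and only Il7r was at least 2-fold lower, beside 6.79% of all genes compared and 21% without ribosomal and mitochondrial UMIs. Itgb7, an integrin chain for homing to the gut, had 7 UMIs in HFHC 3 and 8 in control 2, a ratio of 0.150. Without the control 2 cell that held most of each gene, the ratio was 0.0388 for Lef1, 0.121 for Tcf7, 0.223 for Il7r and 0.217 for Itgb7. Ly6c2 and the early response gene Fos also ranked among the lower genes, but this rested on single cells. Of the 24 UMIs of Ly6c2 in control 2, 22 were in 1 cell, and without it the ratio was 0.909. Of the 24 UMIs of Fos in control 2, 19 were in 1 cell, and without it the ratio was 1.04.

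The heat shock gene Hspa1a had 241 UMIs in 41 cells of HFHC 3 and 7 UMIs in 3 cells of control 2, a ratio of 5.90 (2.82 to 14.8). Such genes respond to the handling of cells, whose part here was not tested. Hepatocyte transcripts were found in the T cells of both libraries. All 8 hepatocyte markers were detected in the HFHC 3 T cells, with a summed level of 2479 CPM, and 5 of 8 in the control 2 T cells, with 1212 CPM. Fabp1 was found in every one of the 57 T cells of HFHC 3 and in 6 of 7 in control 2, with a ratio of 2.43 (1.50 to 4.16). Apoc3, with 0 UMIs in control 2, had a ratio of 2.23 (lower end 1.73). Other markers had ratios of 0.543 (0.208 to 1.66) for Alb and 0.914 (0.262 to 4.89) for Ttr, and Serpina1a, outside the list, was lower with a ratio of 0.171 (0.0458 to 0.641). Of 6 markers with enough UMIs, 2 were at least 2-fold higher, beside 19.9% of all genes compared, and 0 lower, beside 6.79%. Without ribosomal and mitochondrial UMIs 0 were higher, beside 9.84%, and 1 lower, beside 21%. Ighm, a B cell transcript, had 1 UMI in the HFHC 3 T cells and 9 UMIs in 6 of 7 control 2 T cells, while Cd79a, Cd79b and Ms4a1 had 0 in both. Macrophage markers had 3 UMIs and LSEC markers 1 UMI over all 57 T cells of HFHC 3; the part of free RNA in the other ratios was not tested.

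Within HFHC 3, the effector genes were spread over many cells. At least 1 of Pdcd1, Lag3, Tox and Cd160 was detected in 45 of 57 T cells and at least 2 in 27, against 1 and 0 of 7 T cells in control 2. Among the 33 cells with Cxcr6, 15 had Pdcd1, 18 had Lag3, 26 had Ccl4 and 5 had Klf2, a transcription factor that supports exit from tissues. Among the 24 cells without Cxcr6, 4 had Pdcd1, 5 had Lag3, 11 had Ccl4 and 14 had Klf2. Depth differed as well, with a median of 2510 UMIs in cells with Cxcr6 and 2080.5 UMIs in cells without, so these counts are a description of 1 animal. Of the 32 cells with Gzmk, 12 had Eomes, a transcription factor of memory CD8 cells, and of the 25 without Gzmk, 2 had it. Proliferation genes were rare: Mki67 was found in 1 of 57 T cells and Top2a in 1.

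The few T cells of other libraries can be given one by one. The only T cell of HFHC 2 had 63 UMIs of Ccl5, 14 of Ccl4, 10 of Nkg7, 7 of Cd8a, 3 of Lag3, 2 of Gzmk and 1 each of Pdcd1, Tox and Cxcr6, all of them genes found in HFHC 3 T cells. It also had 5 UMIs of the bile duct gene Spp1 and 1 of Cldn7. The only T cell of control 1 had 10 UMIs of Ccl5 and 1 of Gzmb beside 1 UMI each of Krt19, Krt7, Col1a1 and Stab2, which belong to other cell types. In control 4, 1 T cell had 5 UMIs of Lef1, 8 of Cd8b1 and 0 of Ccl5, and the other had 23 of Ccl5, 3 of Cxcr6 and 1 of Lef1.

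A test between diets over summed counts needed at least 10 lymphocytes in each of 3 libraries, which only HFHC 3 reached. With no such minimum, chosen after seeing this, 2 HFHC libraries (HFHC 2 and HFHC 3) and 3 control libraries (1, 2 and 4) could be fitted with edgeR, although HFHC 2 and control 1 entered with a single cell each, 1325 and 1239 UMIs. The fit covered all genes with enough counts, rule genes included, for which it is no independent test. Of 153 genes tested, 0.654% were called higher, which is 1 gene, and 0% lower. The gene was Ccl4, with 14 and 454 UMIs (10566 and 2511 CPM) in HFHC 2 and HFHC 3, against 0, 1 and 0 UMIs in controls 1, 2 and 4. Its log2 fold change was 8.04 (SE 1.27) with an edgeR adjusted p of 0.00996, and both HFHC libraries lay above all 3 control libraries. The 0 of control 1 comes from a single cell and allows up to 2421 CPM, close to the 2511 CPM of HFHC 3. In HFHC 3, 1 T cell held 177 of the 454 UMIs. Where HFHC 2 or HFHC 3 is left out, HFHC has 1 library and the spread comes from the controls alone. Across the alternatives its edgeR or DESeq2 adjusted p ran from 1.52e-10 to 0.664. It missed the threshold without HFHC 2 (edgeR adjusted p 0.234), without control 4 (edgeR adjusted p 0.124) and with no filter on low counts (edgeR adjusted p 0.664).

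Nkg7 followed with 7547 and 5449 CPM in HFHC 2 and HFHC 3, against 0, 1438 and 556 CPM in controls 1, 2 and 4, and an edgeR adjusted p of 0.109. Ccl5 had 47547 and 35011 CPM in HFHC 2 and HFHC 3, against 8071, 4566 and 2556 CPM in controls 1, 2 and 4; every HFHC value lay above every control value, with a log2 fold change of 3.13 (SE 1.50) and an edgeR adjusted p of 0.990. With the 2 lymphocytes left out that had at least 2 markers of another cell type, those of HFHC 2 and control 1, Ccl3, Ccl4, Ccl5 and Nkg7 passed among 521 genes, and HFHC 3 was then the only HFHC library, so no spread among HFHC animals enters.

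NK cells were found in HFHC 3, which had 7, and in control 2, which had 2. The 7 cells of HFHC 3 were chosen by rule genes, of which Klre1 was in 7, Klrb1c and Gzma in 6 each and Ncr1 in 5. Genes that the rule did not use followed the NK programme. Tyrobp and Fcer1g, signalling adapters of activating NK receptors, were each detected in 7 of 7 NK cells and in 1 and 7 of 57 T cells of the same library. Klrd1 (CD94) was in 6 of 7 NK cells and 7 of 57 T cells, and Klrk1 (NKG2D) in 5 of 7 NK cells and 6 of 57 T cells. In control 2, Klrd1 was in 4 of 7 T cells, and the ratio of HFHC 3 to control 2 T cells was 0.193 (0.0660 to 0.574). Lat, a T cell signalling adapter, and Cd8b1 were in 0 of 7 NK cells and each in 45 of 57 T cells. Other T cell genes were shared: of the 14 further T cell genes listed, 9 were detected in the NK cells, each of which had at least 2 of them, with Cd2 in 5 of 7 and Cd27 in 4. Cd3e, Cd3d, Cd3g and Trac had 0 UMIs in the NK cells and Trbc2 was in 3 of 7, which the rule limits, since a cell with 2 of these genes is double-positive. All 7 NK cells did contain Trbc1, with 1 to 4 UMIs each, a transcript known to be made in NK cells without a receptor. Both classes come from 1 animal, so no test between them was made.

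**Figure D4:**
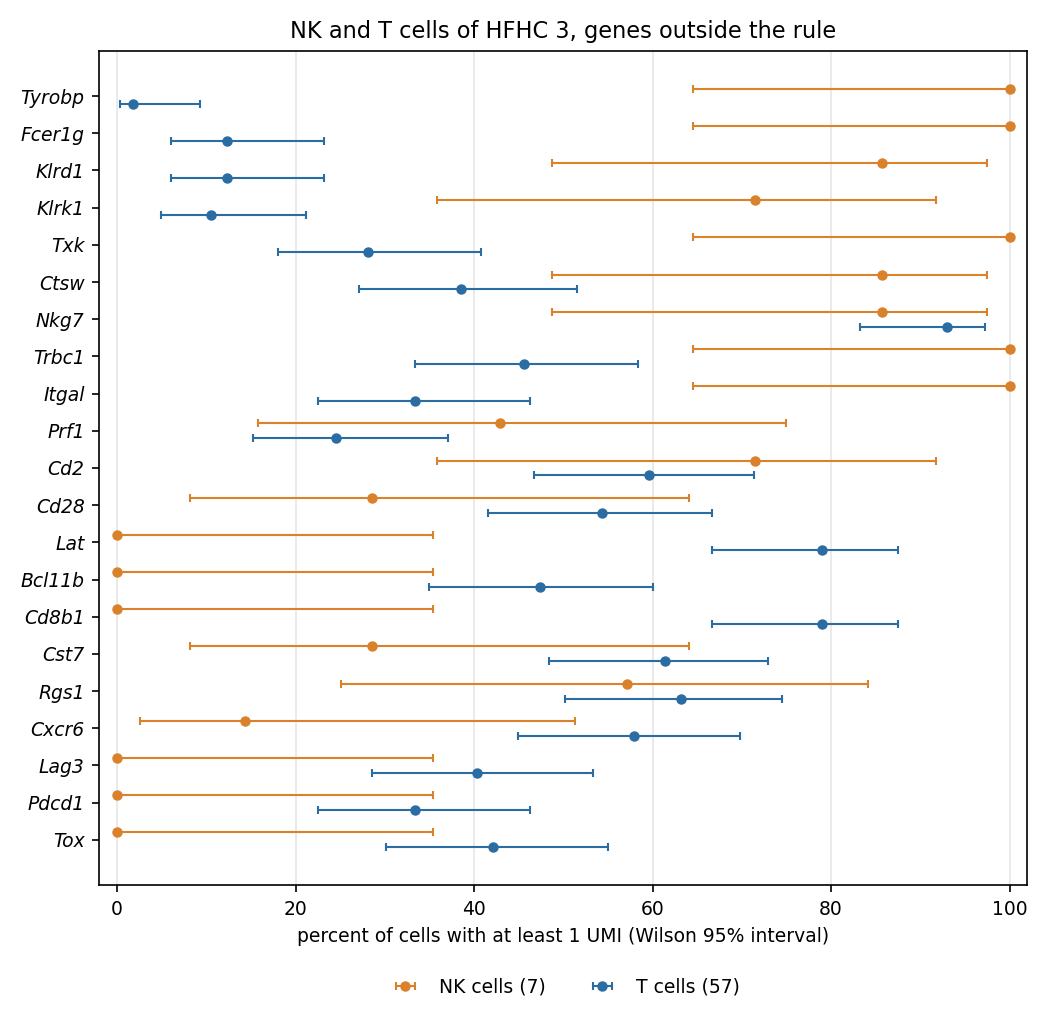
Percent of HFHC 3 cells with at least 1 UMI, with Wilson 95% intervals, for genes that the rule did not use; NK cells in orange, T cells in blue. Tyrobp, Fcer1g, Txk, Trbc1 and Itgal are in 7 of 7 NK cells, and Lat, Bcl11b, Cd8b1, Lag3, Pdcd1 and Tox are in none of them.

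The NK cells varied among themselves. Gzma, the granzyme most abundant in mouse NK cells, ran from 0 through 5 to 86 UMIs per cell, and Ccl5 from 2 through 13 to 246. The deepest cell, with 6839 UMIs, had 86 UMIs of Gzma, 23 of Klra4 and 12 of Klra9, receptors for MHC class I, and 4 of Cma1. Another, with 4511 UMIs, had 10 of Klra8. The Klra genes are near copies of each other, so a count may belong to a relative. The cell with 246 UMIs of Ccl5 also had 5 of Cxcr6. Cxcr6 was detected in 1 of 7 NK cells and 33 of 57 T cells; Itga1, which marks liver-resident innate lymphoid cells, had 0 UMIs in the NK cells. The 2 NK cells of control 2 had 690 and 2383 UMIs, with 12 and 3 UMIs of Gzma, 0 and 7 of Gzmb and 3 and 66 of Ccl5.

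The 4 double-positive cells, all of HFHC 3, were of 2 kinds. In 3 of them the NK rule was met by Gzma and Eomes, which CD8 T cells also express; these cells had 2 to 8 UMIs of Cd3g, 2 to 3 of Cd8b1, 2 to 11 of Gzmb and 87 to 243 of Ccl5, and no Ncr1 or Klrb1c. The remaining cell had Ncr1, Klrb1c, Tyrobp and Fcer1g, with 13 UMIs of Xcl1 and 15 of Fcer1g, and met the T rule by 2 UMIs of Trbc2 and 1 of Cd3d.

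Leading genes of the 81 cells, by the ratio of their CPM to that of all other kept cells, included 6 of the rule and the effector genes Ccl5, Gzmk and Gzmb. Outside the rule, Sh2d1a, an adapter of lymphocyte receptors, had 56 UMIs in the lymphocytes and 0 in the other 3111 cells. Ifng had 49 UMIs in the lymphocytes and 1 elsewhere, Pdcd1 had 44 and 1 elsewhere, and Prf1 had 29 and 1 elsewhere. Cd247, the zeta chain of the receptor complex, had 53 UMIs and 3 elsewhere, Cxcr6 had 80 and 5 elsewhere, Bcl11b, a T lineage factor, had 44 and 4 elsewhere, and Cd28, the main costimulatory receptor of T cells, had 65 and 6 elsewhere.

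Promoters of genes in the effector programme are shown for the motif TGTGGT, the core bound by RUNX factors, or its reverse complement ACCACA, since Runx3 was detected in 33 of the 57 T cells. The motif and the printed genes were chosen with the matches in view. Each run is the RefSeq window on GRCm38.p6 from 250 bases before to 50 bases after the annotated start, 5′ to 3′ on the strand of the gene, with the motif in capitals. The windows are chr14:56262285-56262584 (minus strand) for Gzmb, chr13:113100932-113101231 (minus) for Gzma, chr7:43436888-43437187 (plus) for Nkg7 and chr9:123806227-123806526 (plus) for Cxcr6.
Gzmb: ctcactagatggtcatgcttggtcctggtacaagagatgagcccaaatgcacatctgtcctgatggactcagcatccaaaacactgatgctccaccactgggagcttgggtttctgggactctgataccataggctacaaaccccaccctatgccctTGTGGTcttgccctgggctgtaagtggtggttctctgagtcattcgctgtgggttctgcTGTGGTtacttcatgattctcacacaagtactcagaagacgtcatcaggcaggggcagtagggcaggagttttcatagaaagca
Gzma: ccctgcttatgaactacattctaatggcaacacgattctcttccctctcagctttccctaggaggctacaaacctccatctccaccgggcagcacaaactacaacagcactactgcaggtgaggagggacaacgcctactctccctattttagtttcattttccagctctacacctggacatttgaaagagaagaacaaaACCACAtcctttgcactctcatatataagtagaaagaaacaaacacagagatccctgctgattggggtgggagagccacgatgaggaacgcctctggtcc
Nkg7: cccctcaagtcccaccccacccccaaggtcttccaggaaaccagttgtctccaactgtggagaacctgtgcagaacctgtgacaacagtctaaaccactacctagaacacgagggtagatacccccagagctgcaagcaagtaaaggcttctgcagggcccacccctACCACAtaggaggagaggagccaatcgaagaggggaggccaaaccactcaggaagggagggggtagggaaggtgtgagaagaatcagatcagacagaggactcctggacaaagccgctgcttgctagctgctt
Cxcr6: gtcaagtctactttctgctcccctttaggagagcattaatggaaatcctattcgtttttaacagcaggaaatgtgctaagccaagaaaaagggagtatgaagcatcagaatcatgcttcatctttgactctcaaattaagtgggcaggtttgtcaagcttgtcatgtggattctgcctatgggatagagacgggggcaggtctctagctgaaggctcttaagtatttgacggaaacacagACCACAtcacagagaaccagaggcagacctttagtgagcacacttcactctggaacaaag
Of 39 genes, those of the effector, granule, cytokine, residency and CD8 lists with Gzma added, 28 matched the table with 33 windows, and 18 windows (54.5%) held the motif on either strand, against 16.8% of all 32851 promoters of 300 bases. Gzmb had 2 matches, and Gzmk, Cd8a, Pdcd1 and Ifng had none in their windows. Ccl5, Ccl4, Cd8b1, Tox and Lag3 were among the genes with no window. Windows with the motif included those of Il17a and Tigit, which had no UMI in the 57 T cells. Some genes, such as Cd160, had more than 1 window. A match of 6 letters is a description of the sequence, not a bound site.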

How the data were processed

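The authors deposited 1 matrix of UMI counts, not normalized, with 31053 genes and 3416 cells, and 17399 genes had a UMI. Per the submitters' processing notes, the authors used Cell Ranger 3.0.1 and Seurat with the mm10 build, with no Seurat version or annotation named. All 8 libraries took their groups from the labels, 1 animal each. Keeping each barcode once, where it had most UMIs, left 3192 cells. Lymphocytes had a median of 2437 UMIs. The members, the gene lists and the tests were chosen with earlier results of these data known.

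Shares were compared by an exact permutation test over libraries, with Benjamini-Hochberg adjustment over 3 shares, and single shares carry Wilson 95% intervals. Summed counts of 1 library per diet were compared as a CPM ratio with exact conditional 95% intervals, and a count of 0 was set to 3. The minimum of 10 UMIs, the fold of 2 and the ranking by the interval bound nearest to 1 (20 genes each way could be named) were chosen after seeing the data, as were the minimum of 4 markers for hepatocyte-marked and endothelial-marked barcodes. Other named genes were those of the rule, lineage genes, up to 6 members of each of 31 lists with the highest CPM, and 20 leading genes. Genes of mitochondria and ribosomes, immunoglobulins, haemoglobins, sex chromosomes and predicted models were not named. Genes named because they were at or near 0, Ighm, Xist and the single cells of small libraries were chosen after their values were seen.

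Tests of NK against T cells and of effector against naive cells needed 3 libraries with 5 cells of each and could not be run. The diet test on summed counts used edgeR 4.0.16 in R 4.3.3 (TMM, filterByExpr, robust quasi-likelihood test, Benjamini-Hochberg adjustment, threshold 0.05) without the intended minimum of 10 cells. An SE beside a log2 value was derived as the size of the change over the root of F. The fits were repeated with DESeq2 1.42.0, with its size factors in edgeR, with low counts unfiltered and with T cells alone, and the shares with barcode copies kept, at least 500 genes, at least 3 rule genes, thinning to 1000 UMIs, other denominators, removal of the 60 cells that Scrublet (scanpy 1.11.5) called doublets, 1 of them a lymphocyte, and pairing by replicate number (replicate block). Each library was left out in turn. Totals without mitochondrial and ribosomal UMIs were added after seeing the data. Gene positions came from GENCODE vM21, and promoters from the RefSeq table for GRCm38.p6. Intervals cover counting error only.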

Additional observations from a re-analysis of the deposited data

Results flagged for a closer look

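Within the 4 HFHC libraries, HFHC 3 lay far from the others in its share of T and NK lymphocytes, 7.93% of kept cells, with a gap of 0.830 of the range to the next library. HFHC 3 was also set apart in its share of NK cells, 0.817%, the other HFHC libraries having 0 NK cells. Among control libraries, control 2 was set apart in its share of NK cells, 0.229%, the other control libraries having 0. Chance flags about 1 in 20 groups of this size, 6 groups were looked at, and a group with cells in 1 library always meets the criterion.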

How the results depend on the processing

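No difference in shares between diets passed its threshold under any setting run, but only settings with all 8 libraries freely assigned could pass 0.05: the smallest two-sided exact p is 0.0571 with 1 library left out, 0.125 over the pairs, 0.2 within the libraries that share barcodes and 0.667 within the other 3. The difference between HFHC and control libraries turned round in percent of cells with Ptprc or at least 2 rule genes, to -27.6 percentage points for all lymphocytes (HFHC 13.6%, control 41.3%, exact permutation p = 0.343) and -28.7 for T cells, where libraries with few leukocytes weigh as much as others. It also turned round within the 3 libraries that share few barcodes (-1.06 for all lymphocytes and for T cells, with 1 HFHC library), where no NK cell was found and the NK difference was 0. Leaving out each library in turn gave -0.793 to 1.85 for all lymphocytes, -0.736 to 1.48 for T cells and -0.0571 to 0.215 for NK cells, and each was negative without HFHC 3. Within the libraries that share barcodes it was 1.67 for all lymphocytes. All other settings kept the direction. HFHC 4 is titled animal 14, and its replicate number was taken from its description. The replicate numbers share only a number: deviations of same-numbered libraries correlated at 0.686, -0.167, -0.471 and 0.159. With that replicate block, a sign-flip test gave the same difference of 1.08 for all lymphocytes (exact p = 0.875), 0.814 for T cells and 0.147 for NK cells. No paired analysis was possible for the edgeR fit because the libraries with lymphocytes shared only number 2.

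The effector share of classified T cells in HFHC 3 was 98.2%, and 100% where naive cells needed both genes and effector cells at least 2. The number of genes that edgeR called was 1, and 0 with no filter on low counts. Without that filter, 430 of 9714 genes tested had an unadjusted edgeR p under 0.05, a share below what chance alone would give. Leaving out each library gave 0 to 4 calls, 0 without HFHC 2 or control 4 and 4 without HFHC 3 (Ccl4, Lck, Ms4a4b and Nkg7). Without HFHC 3 the HFHC side is the single cell of HFHC 2, and without either of them 1 library assumed to vary like the controls, so these calls say little. DESeq2 also called 1 gene, Ccl4. With mitochondrial and ribosomal UMIs left out of the totals, 213 genes were at least 2-fold higher in HFHC 3 T cells than in control 2 T cells, in place of 430, and 455 at least 2-fold lower, in place of 147, because the totals changed. Smaller and larger minima of cells per library, and all alternatives of the 2 tests within libraries, were not run, since too few libraries reached them. The small number of cells outside HFHC 3 limits every comparison.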

Other observations

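Genes of T cell signalling that no comparison above covers were detected across the T cells of HFHC 3: Lck, the kinase that starts receptor signalling, was in 43 of 57 cells, Thy1 in 37, Cd2 in 34 and Skap1 in 27. In the same cells, Itga4 and Itgb2, integrin chains for adhesion to endothelium, were detected in 20 and 29 of 57 cells, against 0 and 1 of 7 cells in control 2. Itga4 had a ratio of 1.54 with 0 set to 3 (lower end 1.17). Itgb2 had a ratio of 3.51 with a counting interval of 0.912 to 30.0. The receptor Il21r was in 20 of 57 cells of HFHC 3 and 1 of 7 of control 2, and Cxcr3, an inflammatory chemokine receptor, in 20 of 57 and 2 of 7. Of 12 interferon-induced genes, all were detected in the T cells of HFHC 3 and 8 in those of control 2, with summed levels of 810 CPM in HFHC 3 and 889 CPM in control 2. These values compare 2 animals and were not tested.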
